A study of Mus musculus with 11 samples.

Results

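To examine whether genes that steer growing axons depend on the olfactory Taar cluster, transcript levels of the axon guidance ligands and receptors were measured by RNA-seq in the main olfactory epithelium (MOE), the nasal tissue in which olfactory sensory neurons (OSNs) lie. The members were all symbols in the table of read counts that begin with Sema, Plxn, Nrp, Slit, Robo, Efna, Efnb, Epha or Ephb followed by a digit or letter. Of 68 symbols with these beginnings, 7 were left out (6 Slitrk genes and the symbol Nrp, which belong to other families), so that 61 of 24421 entries remained. They comprised 20 semaphorins, 9 plexins, 2 neuropilins, 3 Slits, 4 Robo receptors, 8 ephrins, 14 Eph receptors and Plxna4os1, an antisense transcript of a plexin gene. The mice carried an intact cluster on both chromosomes (wild type, n = 3), a deletion of Taar2 to Taar9 on 1 chromosome (heterozygous, n = 4) or on both (homozygous, n = 4). The labels give C57BL/6 pups of age P1-P2 and the whole MOE for every library, whereas the reporting section of the study describes this line as older and on a mixed background, and which applies was not settled here. Neither sex nor litter is labelled, and nothing states that replicates came from separate animals, so p-values measure only the spread between these libraries.

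Guidance molecules act as ligand and receptor pairs at the tip of a growing axon. Secreted class 3 semaphorins bind neuropilins, which hold plexins as the signalling partner, and most other semaphorins bind plexins directly. Slits are secreted ligands of Robo receptors, and ephrins are membrane-bound ligands of Eph receptors that can signal in both directions. In the olfactory system Nrp1 with Sema3a, Nrp2 with Sema3f, Robo2 with Slit1 and the ephrin-A and EphA genes are known for positioning OSN axons in the olfactory bulb, and several of them are set in an OSN by the receptor it expresses.

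The libraries held 9239866 to 14632525 counts. The olfactory Taar genes summed to 87 to 119 counts in wild type, 31 to 96 in heterozygous and 1 to 3 in homozygous libraries, so that the homozygous libraries matched their labels. Omp, the marker of mature OSNs, was at 346 to 737 CPM (the count of a gene per 1000000 counts, scaled by TMM) in all 11 libraries. Its means were 562, 502 and 454 CPM in wild type, heterozygous and homozygous libraries. Each of 7 mature OSN markers had its highest mean in wild type. Their sums averaged 1440, 1297 and 1211 CPM, with overlapping ranges (1027 to 1798, 1105 to 1452 and 972 to 1372 CPM). The part of these neurons in the genotype contrasts was not tested. Independently of genotype the libraries fell into a pair of sets on the first principal component, which was computed without the guidance genes. Set 1 held 6 libraries (wild type 1 and 2, heterozygous 3 and 4, homozygous 1 and 2) and set 2 the other 5. Xist, the transcript of the inactive X chromosome, was at 1327 to 4297 CPM in all 3 wild type libraries, heterozygous 3 and homozygous 1, and at 0.880 to 1.70 CPM in the other 6, so that the contrast with wild type and the Xist level can be told apart only in part. Markers of skeletal muscle summed to 7.13 to 56.0 CPM in wild type, 16.5 to 1562 in heterozygous and 19.5 to 733 in homozygous libraries. In whole tissue, fewer cells of a type and less RNA per cell cannot be told apart.

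Guidance genes were broadly transcribed in the MOE, and plexins were the family with the most counts. Of the 61 members, 58 passed the filter on low counts. Epha6 had 0 counts in every library, which allows up to 3 counts per library (counting error only), Epha10 had 1 to 11 and Plxna4os1 0 to 5. Summed over all members the level was 4105 to 5061 CPM per library, of which plexins took 39.1% on average. Levels of different genes were compared per kilobase of annotated exon, merged over all transcripts of a gene. Plxnb2, the plexin that binds class 4 semaphorins in the nervous system and in epithelia, led all members with 89.3 CPM per kilobase. Plxnb1 followed with 34.4, Sema3f with 31.6, Plxna1 with 28.9 and Plxnd1 with 25.0 CPM per kilobase. Plxnb2 and Plxnb1 led in both library sets, but the order after them differed: in set 1 Plxna1 (27.9), Sema3f (27.2), Ephb4 (26.8) and Efna3 (26.1) came before Plxnd1 (24.7), and in set 2 Sema3f (36.9) and Sema4c (34.3) came before Plxna1 (30.2) and Plxnd1 (25.4). At the other end of the tested members was Epha8 with 0.437 CPM per kilobase, the lowest in both sets.

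**Figure D1:**
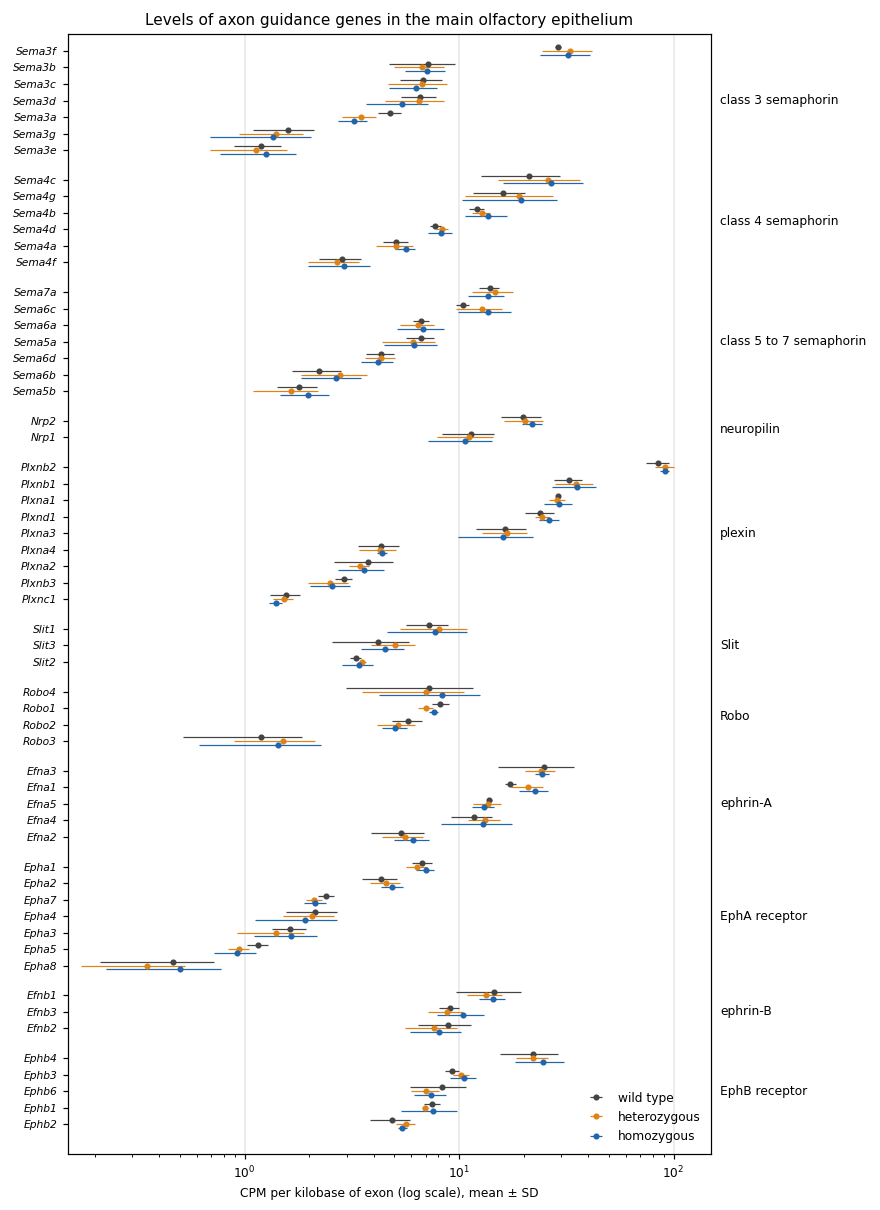
Level of each of the 58 tested guidance genes, in CPM per kilobase of exon on a log axis, grouped by family (points: genotype means; bars: SD, n = 3 wild type, 4 heterozygous and 4 homozygous libraries). Plxnb2 stood highest at 89.3 and Epha8 lowest at 0.437 CPM per kilobase, and the genotypes lay close together within most genes.

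Among the ligands, the secreted class 3 semaphorins spanned 1.19 (Sema3e) to 31.6 (Sema3f) CPM per kilobase. Sema3f, the repellent read by Nrp2, was thus at a higher level than Sema3a, the repellent read by Nrp1, which had 3.75 CPM per kilobase. Sema3b was second in its class with 6.997 CPM per kilobase. In the membrane-bound class 4, Sema4c had 24.9 and Sema4g 18.4 CPM per kilobase, and the lowest was Sema4f with 2.82. Of classes 5 to 7, Sema7a, a lipid-anchored semaphorin that OSN axons carry, had 14.1 and Sema6c 12.5 CPM per kilobase. The Slits lay at 7.73 (Slit1), 4.62 (Slit3) and 3.42 (Slit2) CPM per kilobase. This order rests on the merged exon length, which was 25433 bases in Slit2 and 5921 in Slit1. By CPM alone Slit2 was highest (87.0), before Slit1 (45.8) and Slit3 (28.0). Ephrin-A ligands had a median of 13.5 CPM per kilobase, with Efna3 (24.4) and Efna1 (20.6) leading, and among the ephrin-B ligands Efnb1 had 14.1, Efnb3 9.49 and Efnb2 8.15 CPM per kilobase. Efna3 was above Efna1 in set 1 only, and Efnb3 above Efnb2 in set 2 only.

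Among the receptors, both neuropilins were well represented, with Nrp2 at 20.8 and Nrp1 at 11.1 CPM per kilobase. The plexins ran from 89.3 (Plxnb2) to 1.49 CPM per kilobase for Plxnc1, the receptor of Sema7a. Plxna1 and Plxna3, which partner with neuropilins, had 28.9 and 16.4 CPM per kilobase. Among the Robos the order depended on the library set. Robo4 had 4.59 CPM per kilobase in set 1, below Robo1 (7.72) and Robo2 (5.89), and 11.2 in set 2, above Robo1 (7.35) and Robo2 (4.56). Robo3 was lowest in both sets, with 0.857 and 2.05 CPM per kilobase. The 9 EphA receptors had a median of 1.56 CPM per kilobase and a maximum of 6.70 (Epha1, with Epha2 second at 4.62), whereas the 5 EphB receptors had a median of 7.54, a minimum of 5.37 (Ephb2) and a maximum of 23.1 (Ephb4, with Ephb3 second at 10.1). These orders are of means over all libraries unless a set is named, and rest on 1 tissue and an exon length from an annotation that may differ from that used for counting.

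In homozygous against wild type MOE, no guidance gene passed the test across all genes. Sema3a was the member with the lowest p-value and had lower values in every homozygous library than in every wild type library. Efna1 had higher values in every homozygous than in every wild type library, and the other 56 tested members had overlapping groups. With edgeR's quasi-likelihood test, 0 of 58 members had an adjusted p-value under 0.05 (lowest 0.996), where the share over all 16574 tested genes was 0.0%. Before adjustment, 2 of 58 members (3.45%), Sema3a and Efna1, had a p-value under 0.05, beside 3.02% of all tested genes. The same pair had groups that did not overlap, again 3.45% of members, beside 4.99% of all genes. DESeq2 gave 0 members after adjustment and the same count, 2, before it. With the replicate number as a block the count before adjustment was 1 (Sema3a) over all 3 genotypes, and 2 (Sema3a and Plxna3) over homozygous and wild type libraries alone. Fitted log2 fold changes were above 0 for 35 and below 0 for 23 members, with a range from -0.56 (Sema3a) to 0.39 (Sema6c). Their median was 0.041 beside 0.015 over all genes, and it changed sign over the alternatives (-0.037 to 0.11). All 58 lay within 1.5-fold of wild type, and for 52 the whole 95% confidence interval lay within 2-fold.

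The heterozygous libraries, which tell whether 1 lost copy goes along with a difference, gave a similar picture against the same 3 wild type libraries, which both comparisons share. Again 0 members passed after adjustment in edgeR's test, beside 0.0% of all genes, and 1 of 58 (Sema3a, 1.72%) had an unadjusted p-value under 0.05, beside 2.24% of all genes. Groups did not overlap for 2 of 58 members (3.45%, Sema3a lower and Efna1 higher), beside 2.51% of all genes. DESeq2 also found 0 and 1 members. The log2 fold changes ran from -0.46 (Sema3a) to 0.36 (Robo3), with 26 above and 32 below 0. Their median was -0.021 beside 0.0018 over all genes, and it too changed sign over the alternatives (-0.085 to 0.057). Between homozygous and heterozygous libraries 0 of 58 members passed after adjustment in edgeR's test (all genes 0.0%), 0 had an unadjusted p-value under 0.05 (all genes 0.561%) and 0 had groups without overlap (all genes 0.597%), and DESeq2 gave 0 and 0. In this last comparison fitted log2 fold changes spanned -0.27 (Sema3d) to 0.52 (Epha8), with 35 above and 23 below 0. Both ends depended on single libraries. Leaving out 1 library gave -0.43 to -0.083 for Sema3d and 0.22 to 0.88 for Epha8.

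**Figure D2:**
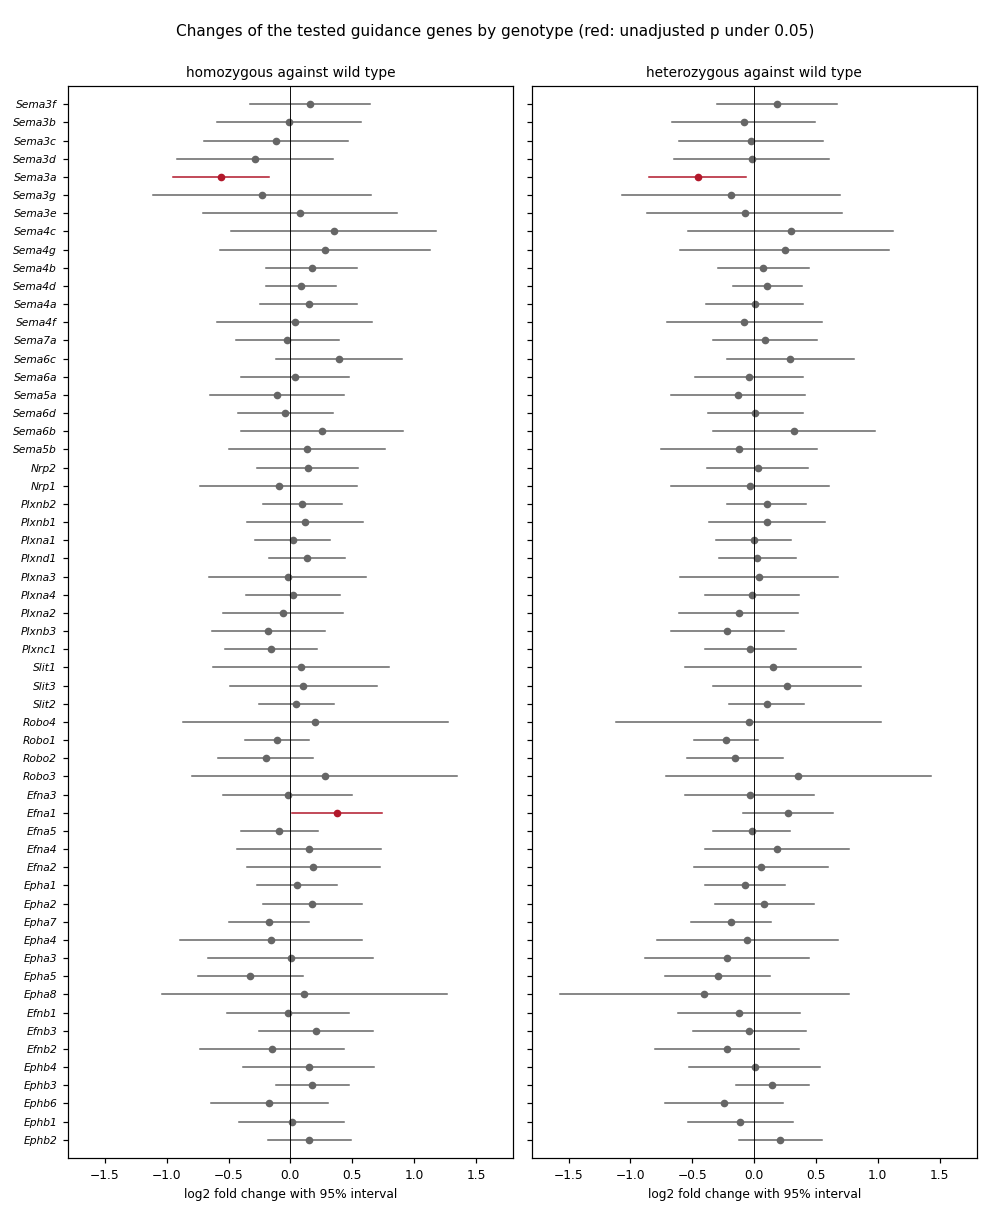
Log2 fold change (x axis) of each of the 58 tested guidance genes (y axis) in homozygous and heterozygous against wild type libraries, with the 95% confidence interval of edgeR's quasi-likelihood fit as a line. Red marks Sema3a (-0.56 and -0.46) and, in the homozygous comparison, Efna1 (0.38), the members with an unadjusted p-value under 0.05.

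Sema3a encodes a secreted repellent that keeps Nrp1-bearing axons away. Its level was 57.0, 70.7 and 71.4 CPM in wild type 1 to 3, 35.3, 53.9, 52.0 and 52.3 CPM in heterozygous 1 to 4, and 48.5, 41.0, 52.7 and 37.4 CPM in homozygous 1 to 4. Every library with a deletion thus lay below every wild type library, while the heterozygous and homozygous values overlapped. The means were 66.4 ± 8.15 (SD, n = 3), 48.4 ± 8.77 (SD, n = 4) and 44.9 ± 6.97 (SD, n = 4) CPM. In edgeR's quasi-likelihood test the homozygous log2 fold change was -0.56 (SE 0.18, 95% confidence interval -0.95 to -0.17). The unadjusted p was 0.00846 and the adjusted p 0.996 in edgeR. The heterozygous one was -0.46 (SE 0.18, interval -0.85 to -0.07), for which edgeR gave an unadjusted p of 0.0251 and an adjusted p of 0.99997. Without wild type 2, wild type 3 or heterozygous 1 the heterozygous value was -0.41, -0.40 or -0.33 and the unadjusted p in edgeR 0.0772, 0.0741 or 0.0630. Two-sided exact permutation tests gave p = 0.0571 for each, the smallest value that 3 against 4 libraries allow. Homozygous against heterozygous, the log2 fold change was -0.11 (SE 0.17) and did not pass.

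Since every library with a deletion lay below every wild type library, Sema3a has that order within each library set as well, with 57.0 and 70.7 CPM in wild type against 41.0 to 52.3 CPM in the other 4 libraries of set 1, and 71.4 CPM in the single wild type library against 35.3 to 53.9 CPM in set 2. Likewise, among the 5 libraries with high Xist it had 57.0, 70.7 and 71.4 CPM in wild type, 52.0 CPM in heterozygous 3 and 48.5 CPM in homozygous 1. With the Xist level as a covariate the Sema3a log2 fold changes were -0.46 (unadjusted p = 0.0861 in edgeR) for homozygous and -0.36 (unadjusted p = 0.165 in edgeR) for heterozygous libraries, so that neither passed before adjustment. Among other cell types of the tissue, the 6 mesenchymal markers summed to 3934 to 9799 CPM in wild type, 3976 to 7510 in heterozygous and 4201 to 6183 in homozygous libraries. The 6 markers of olfactory ensheathing glia, which wrap OSN axons, summed to 260.4 to 302, 234 to 292 and 232 to 271 CPM. The 5 markers of sustentacular cells, the supporting cells of the epithelium, summed to 1567 to 2205, 1131 to 1780.2 and 971 to 1932 CPM, with means of 1923, 1505 and 1435 CPM. Of the 5, Sec14l3 alone had every wild type library above all others (at least 704.4 against at most 704.2 CPM), with means of 762, 455 and 443 CPM, whereas Muc2 had means of 80.2, 84.0 and 83.8 CPM and Cyp1a2 of 67.4, 67.9 and 59.98 CPM. The 5 macrophage markers summed to 115 to 127, 119 to 151 and 133 to 159 CPM. None of the markers in these 4 lists was at 0 in all libraries. Their part in the result was not tested. The base sequence in front of the RefSeq start of Sema3a (GRCm38.p6, chr5:13396534-13396783, + strand) is shown because this gene had the lowest p-value among the members. It ends at the start of a coding transcript, 271 kb downstream of where the GENCODE gene begins with noncoding transcripts, so it is not the only candidate start.

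Sema3a: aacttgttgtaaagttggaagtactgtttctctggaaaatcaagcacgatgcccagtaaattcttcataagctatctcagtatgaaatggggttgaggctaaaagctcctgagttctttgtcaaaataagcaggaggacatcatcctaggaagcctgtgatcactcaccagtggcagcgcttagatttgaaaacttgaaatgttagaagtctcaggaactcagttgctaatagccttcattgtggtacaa

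This stretch of 250 bases has 40.8% G and C and 2 CpG steps, and holds neither of the motifs named below for OSN genes.

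Efna1 encodes ephrin-A1, a membrane-anchored ligand of EphA receptors. It had 32.8, 29.6 and 32.9 CPM in wild type 1 to 3, 47.7, 35.1, 33.1 and 37.8 CPM in heterozygous 1 to 4, and 35.5, 36.3, 48.0 and 45.2 CPM in homozygous 1 to 4. The wild type libraries were the 3 lowest, but heterozygous 3 stood only just above them. Means were 31.7 ± 1.87, 38.4 ± 6.49 and 41.3 ± 6.30 CPM (SD, n = 3, 4 and 4). The homozygous log2 fold change was 0.38 (SE 0.17, 95% confidence interval 0.015 to 0.74), with p = 0.0425 before and 0.996 after adjustment in edgeR's test and p = 0.0571 in the exact permutation test. For heterozygous libraries it was 0.28 (unadjusted p = 0.123 in edgeR), and 0.10 between the 2 knockout genotypes. With the Xist level as a covariate the homozygous value was 0.16 (unadjusted p = 0.447 in edgeR). Leaving out wild type 1, 2 or 3, heterozygous 2 or 4, or homozygous 3 or 4 gave homozygous values of 0.30 to 0.40, each with an unadjusted p in edgeR above 0.05. That p was also above 0.05 without the filter, with the compared genotypes alone and with the replicate number as a block in either fit.

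Other guidance genes known from olfactory wiring, given next, had overlapping groups. Nrp1, whose level in OSN axons orders them along the front to back axis of the bulb, had 109, 143 and 82.7 CPM in wild type, 84.1, 84.0, 151 and 118 CPM in heterozygous and 140.1, 127, 83.8 and 67.5 CPM in homozygous libraries. Its high and low values fell in every genotype. Nrp2, the Sema3f receptor, had 217, 293 and 199 CPM in wild type, 202, 211, 310.4 and 242 CPM in heterozygous and 270.0, 287, 264 and 222 CPM in homozygous libraries. The groups overlapped widely. Sema3f itself had 149.9, 146 and 155 CPM in wild type, 234, 172, 134 and 144 CPM in heterozygous and 136, 138, 168 and 230.3 CPM in homozygous libraries, so that wild type lay inside the range of both other genotypes. Plxna1, the shared signalling partner, varied little, with means of 261 ± 3.86 (SD, n = 3), 260.2 ± 21.2 (SD, n = 4) and 264 ± 39.1 (SD, n = 4) CPM. Plxna3 had 109, 109.5 and 167 CPM in wild type, 167, 145, 121 and 95.04 CPM in heterozygous and 103, 76.9, 137 and 189 CPM in homozygous libraries. Over all libraries its homozygous log2 fold change was -0.02 (SE 0.29). With the replicate number as a block in homozygous and wild type libraries alone it was -0.31 (unadjusted p = 0.0338, adjusted p = 0.740 in edgeR). For each of the 3 shared numbers the homozygous value was the lower. No label pairs these numbers, and libraries that share a number here also share a library set. Sema7a had means of 45.8 ± 5.12, 48.5 ± 10.6 and 45.0 ± 8.57 CPM, and its receptor Plxnc1 13.01 ± 2.08, 12.7 ± 1.38 and 11.7 ± 0.843 CPM, in the same order of genotypes.

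**Figure D3:**
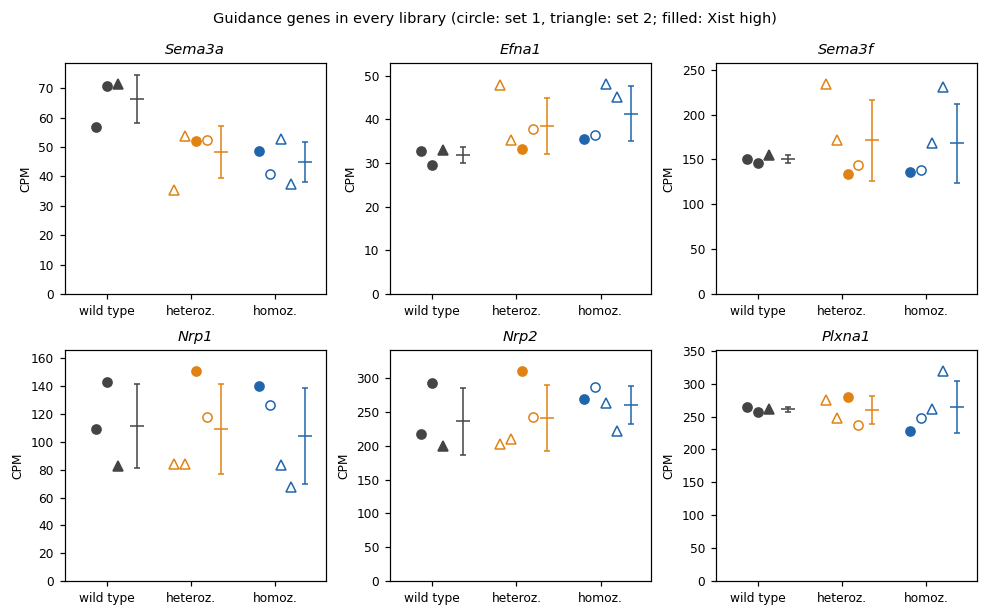
CPM (y axis, from 0) of Sema3a, Efna1, Sema3f, Nrp1, Nrp2 and Plxna1 in each of the 11 libraries by genotype, with the mean and SD beside the points (circles: set 1; triangles: set 2; filled: the 5 libraries with high Xist). Wild type Sema3a values of 57.0 to 71.4 CPM stood above the 8 others, whereas Nrp1 followed the library sets.

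In the Slit and Robo system, Robo1 had 142, 143 and 121 CPM in wild type, 106, 117, 129 and 111 CPM in heterozygous and 119.7, 120.4, 131 and 132 CPM in homozygous libraries. It had the second lowest p-value of the heterozygous comparison (log2 fold change -0.22, SE 0.12, unadjusted p = 0.0823 in edgeR), with overlapping groups. Robo2, which guides dorsal OSN axons, had means of 98.04 ± 15.6, 88.1 ± 17.5 and 85.3 ± 11.4 CPM (SD) in wild type, heterozygous and homozygous libraries. Slit1 had 43.1 ± 9.45, 47.8 ± 16.5 and 45.8 ± 18.6 CPM and Slit2 83.8 ± 5.01, 90.0 ± 4.18 and 86.6 ± 14.4 CPM. None of these groups separated.

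In the ephrin and Eph system, Epha5, a receptor found on OSN axons, had 21.3, 17.1 and 19.7 CPM in wild type, 14.6, 14.5, 15.7 and 18.3 CPM in heterozygous and 16.6, 19.1, 15.2 and 11.02 CPM in homozygous libraries. The groups overlapped, with log2 fold changes of -0.33 (SE 0.20, unadjusted p = 0.122 in edgeR) and -0.30 (SE 0.20, unadjusted p = 0.157 in edgeR) for homozygous and heterozygous libraries. The homozygous value was -0.45 without homozygous 2 (unadjusted p = 0.0494, adjusted p = 0.945 in edgeR) and -0.19 without homozygous 4. Efna5, an ephrin-A that OSN subsets carry at different levels, had means of 55.9 ± 1.62, 55.0 ± 7.92 and 52.4 ± 5.92 CPM, and Efna3 60.3 ± 23.2, 58.8 ± 9.65 and 59.4 ± 4.36 CPM. The wide wild type spread of Efna3 came from wild type 3, which had 33.9 CPM beside 77.2 and 69.8 CPM. On the ephrin-B side Efnb1 had 50.3 ± 17.0, 46.2 ± 8.49 and 49.6 ± 6.64 CPM, Efnb2 61.1 ± 16.9, 52.6 ± 14.3 and 55.2 ± 14.6 CPM and the receptor Ephb2 61.7 ± 12.99, 71.4 ± 7.29 and 68.6 ± 3.18 CPM. Among the other ligands, Sema4c had a homozygous log2 fold change of 0.35 (SE 0.38), and with the Xist level as a covariate it was -0.15. Leaving out homozygous 4 gave 0.093 and leaving out wild type 3 gave 0.73. Sema6c had 0.39 (SE 0.23, unadjusted p = 0.120 in edgeR), with 57.0 to 65.6 CPM in wild type and 63.7 to 113 CPM in homozygous libraries. With the muscle markers as a covariate Sema6c had 0.61 (unadjusted p = 0.0228, adjusted p = 0.766 in edgeR). Without homozygous 4 it had 0.19, and over all alternatives 0.17 to 0.61.

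Other axon guidance genes, taken from lists outside the members, gave counts of the same kind. Of the 17 genes of netrin and repulsive guidance molecule signalling, the 28 intracellular effectors of plexin, Eph and Robo receptors and the 12 adhesion co-receptors, all passed the filter. In each of the 3 genotype comparisons 0 genes of each list passed edgeR's test after adjustment and 0 had an unadjusted p-value under 0.05, beside 3.02%, 2.24% and 0.561% of all genes for the contrasts in the order given above. Over the 3 lists together this unadjusted count was 2 in the first comparison with the Xist level as a covariate (the adhesion molecule Cntn2 and the plexin-binding GTPase Rnd1) or without homozygous 1 (Rgma and Ntn3). The homozygous median log2 fold changes were 0.079, 0.096 and 0.007 for the lists in that order, beside 0.015 over all genes. The lowest homozygous p-value was that of Rgma, a ligand of neogenin (unadjusted p = 0.0718 in edgeR).

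The larger differences of the guidance genes lay between the library sets, across all genotypes. In set 2 all 5 libraries lay above all 6 of set 1 for 14 of 58 members (24.1%), beside 16.0% of all tested genes, and below them for 8 members (13.8%), beside 10.9% of all genes. No test was made, since the sets were found from the same libraries. The 14 members were Robo4, Robo3, Sema4c, Sema4g, Slit1, Plxna3, Sema4f, Efna4, Plxna2, Plxnb1, Sema3f, Sema6a, Efnb3 and Efna5. The 8 members were Sema3g, Sema3e, Epha4, Nrp1, Efnb2, Ephb4, Efna2 and Robo2. Transcripts of the 14 had a median of 57.2% G and C and those of the 8 a median of 48.0%, beside 55.7% in the other 36 tested members and 49.7% over all tested genes with a value. The gene spans had medians of 21.1, 94.3, 77.3 and 22.1 kb in the same order. Meg3, an imprinted noncoding RNA, was at 218 to 517 CPM in set 1 and 1212 to 1528 CPM in set 2. The part of base composition in these set differences was not tested.

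**Figure D4:**
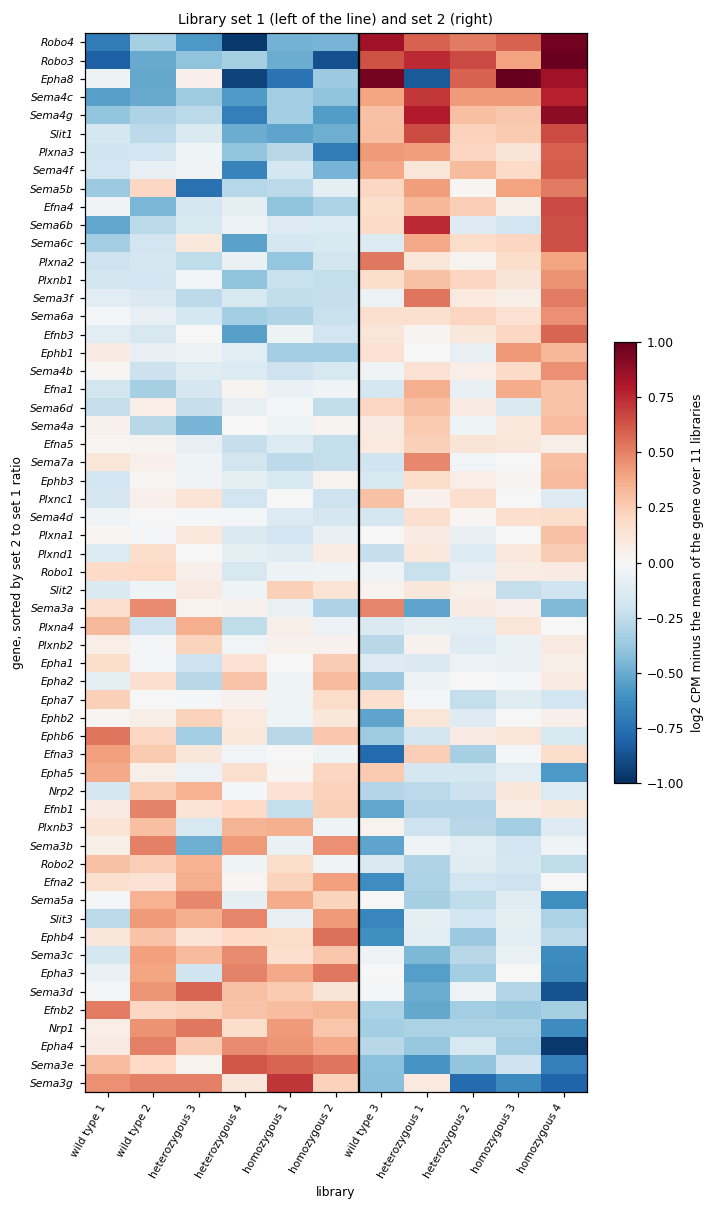
Heat map of log2 CPM minus the mean of each gene for the 58 tested guidance genes (rows, ordered by the ratio of set 2 to set 1) in the 11 libraries (columns, 6 of set 1 left and 5 of set 2 right of the line). Robo4 and Robo3 at the top were higher and Epha4, Sema3e and Sema3g at the bottom lower in all libraries of set 2 than in those of set 1, and each set held all 3 genotypes.

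Some partners in signalling differed between the sets in opposite directions and others in the same one. Nrp1 had 109 to 151 CPM in set 1 and 67.5 to 84.1 CPM in set 2 (ratio 0.612), whereas its partner Plxna3 had 76.9 to 121 CPM in set 1 and 137 to 189 CPM in set 2 (ratio 1.57). Slit1 was likewise at 30.5 to 39.6 CPM in set 1 and 51.4 to 69.1 CPM in set 2, and its receptor Robo2 at 86.4 to 113 CPM and 71.9 to 81.4 CPM. Efnb2 (ratio 0.621) and its receptor Ephb4 (0.692) were in contrast both lower in set 2, and Sema3f (1.36) and Plxna3 both higher. These pairs were picked from the members without overlap between the sets. Plxna1, the shared signalling partner of the neuropilins, overlapped between the sets (ratio 1.08). Markers of several cell types also had lower means in set 2. These were all 7 endothelial (ratios 0.604 to 0.894, 4 without overlap), all 4 horizontal basal cell (0.375 to 0.690, 1 without overlap) and all 6 mesenchymal markers (0.696 to 0.874). The 8 skeletal muscle markers had lower means as well (0.570 to 0.843), but heterozygous 4 of set 1 held the highest value of each. Acta1 was at 446 CPM there, at 1.02 to 129 CPM in the rest of set 1 and at 88.4 CPM on average in set 2. Of the 5 sustentacular markers only Ermn had a lower mean (0.608, without overlap). Ratios of the other sustentacular markers were 1.05 to 1.57, and Muc2 was higher without overlap. The part of these cell types in the set differences was not tested. Plxna1, Plxnb2 and Sema4d spread least over the libraries, with SDs of log2 CPM of 0.131, 0.129 and 0.128. Epha8 (SD 0.708), Robo4 (0.699), Robo3 (0.682), Sema3g (0.550) and Sema4c (0.537) spread most, beside a median of 0.284 over the tested members and 0.304 over all tested genes. Epha8 was counted at 9 to 50 reads per library, the fewest of the tested members.

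Robo3 and Robo4 had the largest ratios between sets. Robo3 sets how commissural axons respond to Slit, and Robo4 is the Robo receptor of blood vessel endothelium. Robo4 had 18.5 to 28.8 CPM in set 1 and 51.9 to 70.6 CPM in set 2 (ratio 2.43), and Robo3 had 4.69 to 6.85 CPM and 11.4 to 17.1 CPM (ratio 2.39). Both lie on chromosome 9 of mm10, Robo4 on the + strand (chr9:37401897-37415115) and Robo3 on the - strand (chr9:37415669-37433246), so that their 3' ends face each other across 553 bases. A directional kit was used, but the strand setting of the counting is not given in the sources used here. The endothelial markers went the other way from Robo4, and their sum was 327 to 398 CPM in set 1 and 211 to 291 CPM in set 2.

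Motifs of the regulators known for OSN receptor genes were sought in the 250 bases before RefSeq starts (GRCm38.p6), where 53 of the 61 members had at least 1 window and 69 windows in all. The motif of the EBF factors, TCCCNNGGGA, is its own reverse complement and so covers both strands. It occurred in 0.779% of 32851 windows of all genes and in 2 windows of members, those of Plxnb1 and Robo3. The homeodomain motif TAATTA, bound by LHX factors and also its own reverse complement, occurred in 4.84% of all windows and in 3 of members, those of Efna1, Epha5 and Robo3. Neither motif overlapped the other. Epha5 (chr5:84417383-84417632, - strand), Plxnb1 (chr9:109095186-109095388, + strand) and Robo3 (chr9:37433247-37433425, - strand) are shown as members with a motif, without the part of a window that lies in an annotated exon (47 bases in Plxnb1 and 71 in Robo3). Capitals mark TAATTA at -230 to -225 in Epha5 and at -101 to -96 in Robo3, and the EBF motif at -160 to -151 in Plxnb1, counted from the RefSeq start. The EBF match of Robo3 (-55 to -46) and the TAATTA of Efna1 (-175 to -170) lie in annotated exon and are not shown.

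Epha5: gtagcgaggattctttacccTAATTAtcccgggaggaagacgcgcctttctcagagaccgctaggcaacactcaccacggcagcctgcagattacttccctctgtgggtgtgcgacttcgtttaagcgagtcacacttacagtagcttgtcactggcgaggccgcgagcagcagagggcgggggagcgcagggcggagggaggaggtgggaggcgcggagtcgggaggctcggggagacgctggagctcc

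Plxnb1: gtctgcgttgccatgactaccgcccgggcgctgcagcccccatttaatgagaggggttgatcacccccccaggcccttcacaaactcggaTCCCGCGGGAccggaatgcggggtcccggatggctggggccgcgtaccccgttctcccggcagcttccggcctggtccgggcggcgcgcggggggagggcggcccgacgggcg

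Robo3: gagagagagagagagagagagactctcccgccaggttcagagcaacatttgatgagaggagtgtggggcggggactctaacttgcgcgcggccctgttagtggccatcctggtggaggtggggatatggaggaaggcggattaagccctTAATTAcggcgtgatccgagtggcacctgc

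Plxnb1 and Robo3 were higher in set 2, with 247 to 319 CPM in set 1 and 355 to 444 CPM in set 2 for Plxnb1, whereas Epha5 overlapped between the sets. A match describes these letters only, and binding was not measured.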

How the data were processed

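Total RNA of the whole MOE of 11 samples was sequenced after polyA selection with a directional kit. Per the labels and the methods of the study, the authors trimmed reads with Trimmomatic (version 0.36), used HISAT2 (version 2.1.0) for alignment to mm10 and deposited raw read counts per gene from featureCounts (Subread version 1.6.2). The annotation, strand setting and treatment of reads with several positions are not given in the sources used here. A second table deposited by the authors holds normalised signal (DESeq2 version 1.20.0) and was used here only for 1 alternative that kept its genes. Depth was 9239866 to 14632525 counts per sample, and TMM scaling set the effective size of homozygous 2 at 9169139 beside 12132233 counts.

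Raw counts were tested with edgeR (version 4.0.16, R version 4.3.3) by TMM scaling, the filterByExpr filter by genotype and quasi-likelihood F-tests of the 3 genotypes over 11 libraries, with Benjamini-Hochberg adjustment over 16574 genes and a threshold of 0.05. The procedure was tested on simulated data. DESeq2 (version 1.42.0), RLE scaling, no filter, the normalised table's genes, the compared genotypes alone, the replicate number, the library set and the muscle markers as covariates, and leaving out each library were alternatives. Xist as a covariate and the replicate number in the homozygous and wild type libraries alone were added after the data were seen. Lengths and coordinates came from GENCODE (release M21, mm10).

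Same-numbered homozygous and wild type libraries deviated together (correlations 0.317, 0.405 and 0.386), but no label pairs them. Numbers 1 and 2 lie in set 1 and number 3 in set 2 in both genotypes. The correlations therefore cannot tell a pairing by number from a shared library set.

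The members and lists were chosen with earlier results of these data known. Named genes were members with an unadjusted p-value under 0.05, the 2 highest per length of each family, genes with textbook roles in olfactory wiring, members that failed the filter, and those with the largest 5 and smallest 3 spreads. Genes outside this rule were picked with their values in view.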

Additional observations from a re-analysis of the deposited data

Results flagged for a closer look

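Among groups of 4 libraries, 5 of 120 had 1 library far from the other 3 by Dixon's test, where about 6 would be met by chance at 1 in 20. Sema3a was at 35.3 CPM in heterozygous 1 and at 52.0, 52.3 and 53.9 CPM in the other heterozygous libraries. Without heterozygous 1 the heterozygous log2 fold change was -0.33, and Sema3a no longer had an unadjusted p-value under 0.05 in edgeR's test. Sema6b was at 16.7 CPM in heterozygous 1 beside 8.91, 9.10 and 9.53 CPM, and at 15.6 CPM in homozygous 4 beside 8.73, 9.05 and 9.09 CPM. Efna3 was at 65.8 CPM in homozygous 4 beside 56.4, 57.4 and 57.9 CPM. Plxnb3 was at 21.4 CPM in heterozygous 4 beside 13.9, 14.6 and 15.1 CPM.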

How the results depend on the processing

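The count of guidance genes past the adjusted threshold was 0 in each comparison under all 20 or 21 alternatives, and so was that of the genes of the other guidance lists. Before adjustment the latter count was 0, and 2 with the Xist covariate, 1 without wild type 3 and 2 without homozygous 1 (homozygous against wild type), 1 with the Xist covariate (heterozygous against wild type), and 1, 2 and 1 without heterozygous 1, homozygous 1 and homozygous 3 (homozygous against heterozygous). For homozygous and wild type libraries, 2 members had a p-value under 0.05 before adjustment. The count was 1 without the filter, with the replicate block and with the compared genotypes alone, 0 with the Xist covariate, 2 with the replicate block in the compared genotypes alone, 3 with the muscle covariate, and 1 to 3 without single libraries. It was 1 without wild type 1 or 2, heterozygous 2 or 4, or homozygous 3 or 4. Without wild type 3 the 2 were Sema3a and Epha10 (log2 fold change 1.98), which then passed the filter but had only 1 to 11 counts per library. Without homozygous 2 the 3 were Sema3a, Efna1 and Epha5. For heterozygous libraries the count was 1 (Sema3a), 0 with the replicate block, and 0 (without heterozygous 1) to 2 without single libraries. Where it stayed 1, the member was Ephb6 with the Xist covariate and Slit3 without wild type 2, and Sema3a otherwise. The 2 were Ephb6 and Robo1 without wild type 3 and Robo1 and Sema3a without heterozygous 3. Same-numbered heterozygous and wild type libraries lie in different library sets (correlations -0.165, -0.348 and -0.215). Between homozygous and heterozygous libraries the count stayed 0. Sema3a kept its direction under all alternatives, with an unadjusted p-value under 0.05 in 20 of 21 (homozygous, log2 fold change -0.74 to -0.46, lowest adjusted p 0.508, in edgeR or DESeq2) and 15 of 20 (heterozygous, -0.61 to -0.33), and Efna1 in 9 of 21 (homozygous, 0.16 to 0.44). The homozygous log2 fold change of Sema4c was reversed with the Xist covariate (-0.15), and that of Plxna3 (-0.02) with the muscle covariate (0.20), without wild type 3 (0.21), without homozygous 1 (0.063) and without homozygous 2 (0.14), with a range of -0.28 to 0.21 without single libraries. The cause of these changes was not tested, beyond the fewer libraries or genes in a fit. Epha6, Epha10 and Plxna4os1 did not pass the filter on low counts over all libraries.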
